A study of Bos taurus with 2 samples.

Results

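Genes of neutrophil granules and of the neutrophil surface were measured in the *longissimus thoracis* (LT) muscle of Japanese Black fetal calves. The group holds 10 genes. They were chosen by their signals and background flags on the arrays described here, so the differences between the pools are given as a description and without a test. They comprise the granule genes of immature cells (*MPO*, *ELANE* and *LTF*), genes of mature neutrophils (*CSF3R*, *CXCR2* and *FCGR3A*), and *LCN2*, *MMP9*, *RETN* and *ALOX5AP*. Through the accession of each probe, 8 of these 10 genes were found, out of 26714 genes and unnamed transcripts on the array. They had 18 probes. No accession was matched to *LCN2* or *CSF3R*, which were not analysed here.

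Dams of the low-nutrition (LN) group were fed 60% of their requirement, and those of the high-nutrition (HN) group 120%, with 5 and 6 dams, respectively. All were inseminated with male-sorted semen of a single sire, and the fetuses were taken at 8.5 months, on day 260 ± 8.3 of gestation. Total RNA from the 4 lightest LN fetuses and from the 4 heaviest HN fetuses was pooled, and each pool was hybridized to 1 Agilent Bovine (v2) one-color array. Diet and selection by bodyweight therefore cannot be told apart, and no spread between fetuses was measured.

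Neutrophils are short-lived phagocytes of the blood that carry ready-made enzymes in granules. Their precursors in blood-forming tissue make the granule proteins in sequence: azurophil granules first, with myeloperoxidase and elastase, then specific granules with lactoferrin and lipocalin, and then gelatinase granules. Receptors for chemokines, growth factor and antibody mark the later, mature stages, when transcription of most granule genes has ended. In skeletal muscle such cells are scarce and lie mainly in the vessels. In bulk RNA, a change in the number of such cells and a change in RNA per cell cannot be told apart.

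For 1 member, *RETN*, the study also designed qRT-PCR primers. They are shown because the array probes of this gene gave unlike values, as described further down, and because they are the only designed sequences of a member used here. They are written 5′ to 3′, with no part marked. Their position relative to the array probes was not analysed.
*RETN* forward primer: tgcatatccagtagcctaagactg
*RETN* reverse primer: ctcaaagaggtttatttccagccg

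Most of the member signals were dim. The signal, here the background-corrected fluorescence of a spot in arbitrary units, had a median of 49.1 (HN) and 48.4 (LN) over all 43803 spots that were not controls. Negative controls had a median of 1.24 (HN) and 1.51 (LN), and the brightest of them reached 2.17 and 5.78. The scanner software marked 74.5% of spots on the HN and 70.9% on the LN array as well above background. All 14 matched markers of skeletal muscle, such as *ACTA1* and *CKM*, were so on both arrays. Log2 values given below were quantile-normalized, and log2 LN/HN is their difference. The SD of this difference for a single spot was 0.086 over 42 probes printed several times, and 0.20 for the 3 of them with a mean log2 signal from 2 to 5, where most member probes lay. These errors and the software's own error estimate, given with each signal, cover the array measurement and not the animals.

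Of the 18 member probes, 11 were well above background on both arrays, 1 was so on the LN array only, 2 on the HN array only, and 4 on neither. Of the 8 genes with a value, 3 were higher in the LN pool (*MPO*, *LTF* and *RETN*) and 5 were lower, against 49.3% of all 19554 genes with a value that were higher. The 3 higher genes were past 1.25-fold, as were 8.85% of all genes. Of the lower genes, *CXCR2* and *FCGR3A* were past 1.25-fold, as were 9.11% of all genes. Only *MPO* was past 2-fold higher (0.711% of all genes), and no member was past 2-fold lower (0.286%). Over all genes, 139 were past 2-fold higher and 56 past it lower, but this split depended on the scaling, with 80 higher and 93 lower when scaled by the 75th percentile, 91 higher and 84 lower when not normalized, and 104 higher and 75 lower with cyclic loess. Because the members were selected on this same contrast, nothing is read from these shares. The median log2 LN/HN of the 8 genes was -0.08, against -0.0033 over all genes.

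**Figure D1:**
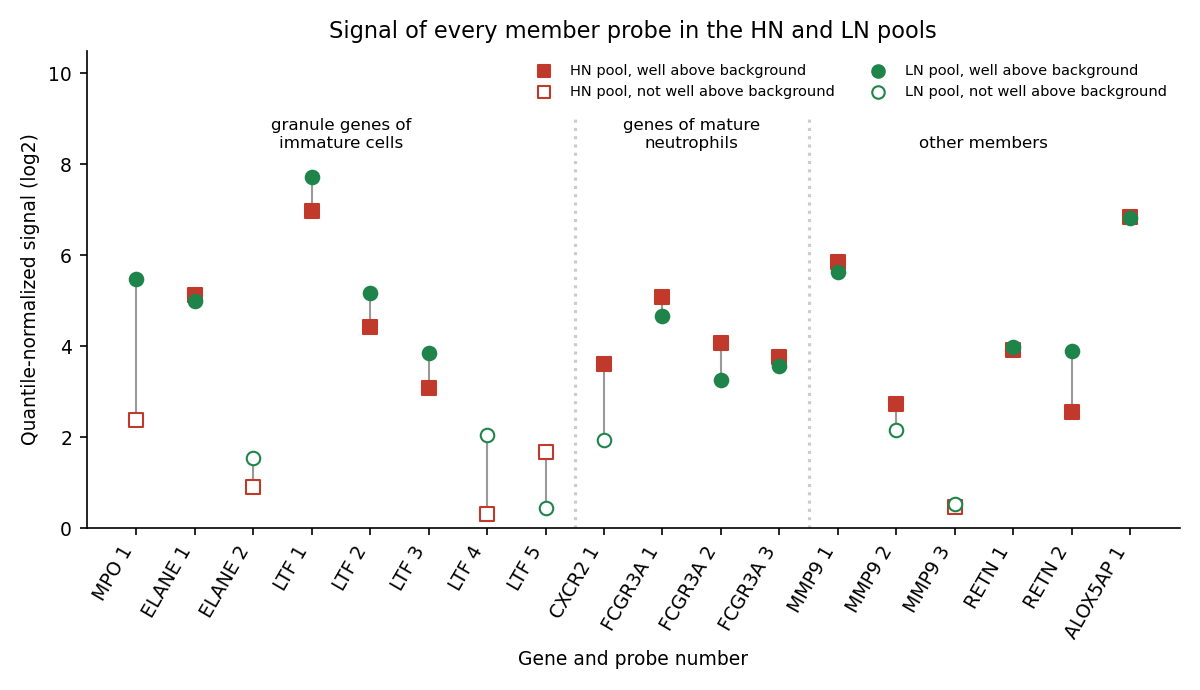
Quantile-normalized signal (y axis, log2) of the 18 member probes (x axis, numbered within a gene from the brightest) in the HN pool (squares) and the LN pool (circles), with 1 array per pool. Filled symbols are well above background. The *MPO* probe lies at 2.37 in HN, where it is open, and at 5.48 in LN, the widest gap of any member probe.

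*MPO* encodes myeloperoxidase, the enzyme of azurophil granules that makes hypochlorous acid. Its only probe had a signal of 5.64 ± 1.32 (software error) in HN and 44.1 ± 4.66 in LN. The HN signal was 4.26 times its error but was not well above background. Its own HN value (log2 2.37) lay just above the lowest one well above background on that array (2.27) and was used for that side. The fold is therefore the one measured and not a lower limit. On the quantile-normalized scale, the *MPO* signal was 8.62-fold higher in the LN pool (log2 LN/HN 3.11, software error 0.37). This value depended on the scaling, with a log2 LN/HN of 2.97 without normalization and 2.93 after scaling by the 75th percentile. No other probe of *MPO* was available to set beside it. After the normexp background correction with an offset of 50, its log2 LN/HN was 0.72. Adding this offset makes the log2 differences of dim probes smaller by construction, here and below. In the authors' normalized values the *MPO* probe is not listed.

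*LTF* encodes lactoferrin, the iron-binding protein of specific granules. Its 3 probes that were well above background on both arrays had signals of 125 ± 12.6, 22.1 ± 2.46 and 8.91 ± 1.57 in the HN pool. In the LN pool the same probes had 214 ± 21.4, 35.4 ± 3.79 and 14.0 ± 2.09. All 3 were brighter in the LN pool, and by nearly the same factor, with log2 LN/HN values of 0.75, 0.74 and 0.79. The gene value was 0.76, a 1.69-fold difference, with a SD of 0.023 between probes. The other 2 probes of *LTF* were not well above background on either array and pointed in opposite directions as measured (1.74 and -1.23). Under the alternatives tried, the gene value stayed above 0, from 0.33 after normexp to 0.80 in the authors' normalized values.

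*ELANE* encodes neutrophil elastase, the serine protease stored with myeloperoxidase. Its brighter probe had a signal of 35.7 ± 3.74 in HN and 31.3 ± 3.43 in LN, a log2 LN/HN of -0.13 against a software error of 0.22. The pools thus differed by less than the error of the measurement. Its other probe was not well above background on either array (2.01 ± 1.29 and 2.57 ± 1.60). The direction of *ELANE* depended on that probe: with no filter on dim probes, or with probes only required to be positive and significant, the gene value was 0.25.

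*CXCR2*, the receptor through which neutrophils follow interleukin 8 and related chemokines, had 1 probe. Its signal was 12.8 ± 2.05 in HN and 3.47 ± 1.95 in LN, where it was not well above background. Set against the lowest signal that was well above background on the LN array (log2 2.82), *CXCR2* was at least 1.72-fold lower in the LN pool (log2 LN/HN -0.79). Taken as measured, the log2 LN/HN was -1.66, and after normexp it was -0.14.

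*FCGR3A* encodes the low-affinity antibody receptor CD16, which is also found on natural killer cells and some monocytes. Its 3 probes had signals of 34.6 ± 3.61, 17.4 ± 2.24 and 14.2 ± 1.81 in the HN pool. In the LN pool they had 24.7 ± 2.81, 9.14 ± 1.94 and 11.2 ± 1.82. All 3 were dimmer in the LN pool, by unequal amounts (log2 LN/HN -0.43, -0.81 and -0.21), and the last was within its software error of 0.30. The gene value was -0.48, a 1.40-fold difference, with a SD of 0.30 between probes, and it was -0.10 after normexp.

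The mean log2 LN/HN of *MPO*, *ELANE* and *LTF* was 1.24, with values from -0.13 to 3.11. That of *CXCR2* and *FCGR3A* was -0.63, with values from -0.79 to -0.48. The difference was 1.88 on the log2 scale, and the values of the granule genes did not overlap those of the surface genes, although *ELANE* was itself slightly lower. The genes were named for this contrast, so the order of both groups is no finding. The size depended strongly on *MPO*. It was 0.95 without *MPO*, 1.73 without *CXCR2* and 0.80 without both. Each of these genes had its only probe well above background in the brighter pool alone. With the dim side as measured, the difference was 2.32. After normexp it was 0.45, and in the authors' normalized values, which list neither *MPO* nor *CXCR2*, it was 0.93.

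**Figure D2:**
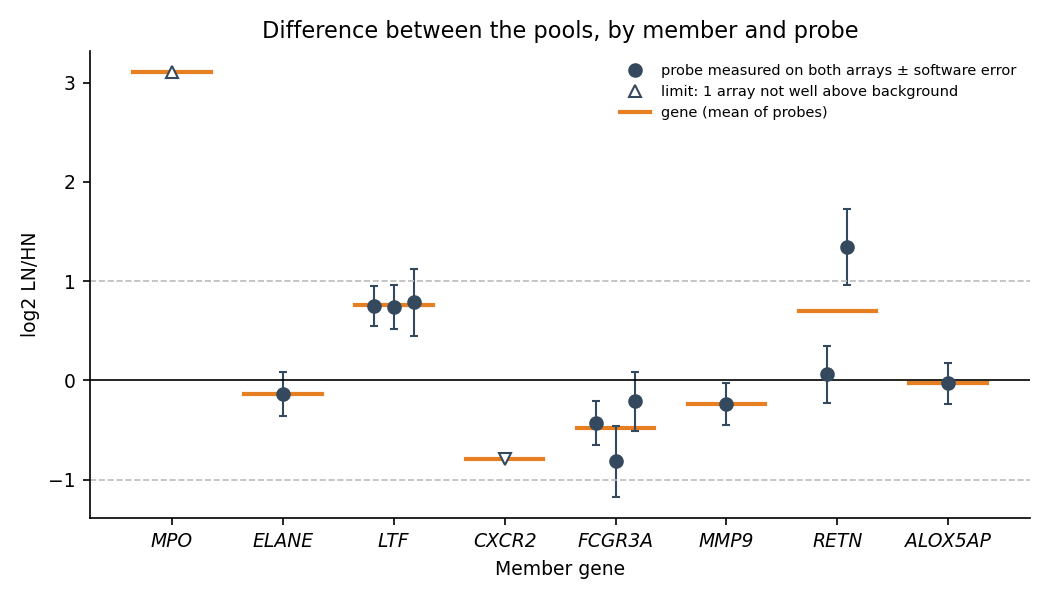
Log2 LN/HN (y axis) of each member gene (x axis). Filled points are probes well above background on both arrays with the software error, and bars are gene values. Open triangles, called limits in the key, are probes well above background on 1 array only and point in the direction of the change. *LTF* probes lie between 0.74 and 0.79, whereas the *RETN* probes are at 0.06 and 1.34.

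Of the other members, *RETN* encodes resistin, a small secreted protein that human leukocytes and the fat cells of several species make. One probe had a signal of 15.8 ± 2.10 in HN and 15.3 ± 2.26 in LN. The second had 6.39 ± 1.41 and 14.5 ± 2.12, so that it was higher in the LN pool while the first was level. The log2 LN/HN values were 0.06 and 1.34, with software errors of 0.29 and 0.38, and the gene value of 0.70 lay between them. It was 0.06 with the brighter probe alone and 0.11 after normexp.

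*MMP9* encodes the gelatinase of the granules formed last, a protease that macrophages also secrete. Its brightest probe had a signal of 58.7 ± 6.00 in HN and 49.0 ± 5.11 in LN, a log2 LN/HN of -0.24 with a software error of 0.21. The second probe was well above background in the HN pool only (7.13 ± 1.36 against 4.10 ± 1.50) and gave no fold, and the third was not well above background on either array. *ALOX5AP*, the membrane protein that presents arachidonic acid to 5-lipoxygenase in leukotriene synthesis, had a signal of 116 ± 11.7 in HN and 113 ± 11.4 in LN. Its log2 LN/HN was -0.03, within its error of 0.21, and it stayed between -0.07 and -0.03 in all settings.

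**Figure D3:**
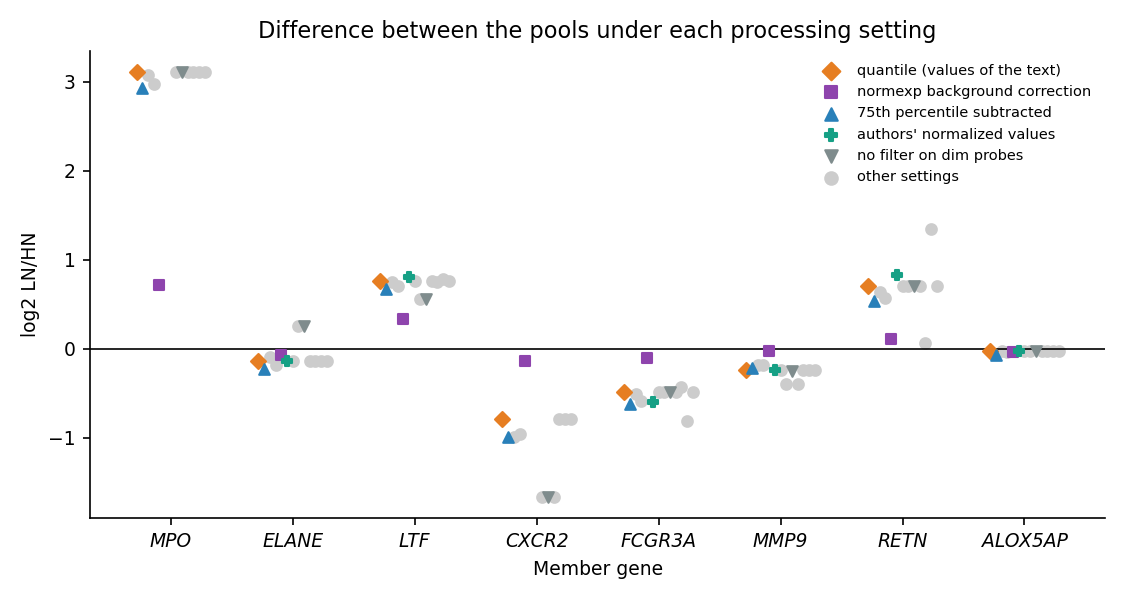
Log2 LN/HN (y axis) of the 8 member genes (x axis) under the quantile normalization and 12 alternatives, offset sideways. *MPO*, *LTF* and *RETN* lie above 0 and *CXCR2*, *FCGR3A*, *MMP9* and *ALOX5AP* below 0 in every setting that gave a value, *ELANE* lies on both sides, and normexp (purple squares) draws *MPO* to 0.72 and *CXCR2* to -0.14.

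To place the members among related genes, lists of other neutrophil genes were written from general knowledge, with earlier results of these data known. In the azurophil granule list, 8 of 13 genes were matched and had a value, *MPO* and *ELANE* included. Of these, 3 were higher and 5 lower in the LN pool, with a median log2 LN/HN of -0.07. No gene of this list other than *MPO* was past 1.25-fold. *BPI*, which encodes a protein that kills Gram-negative bacteria, had a log2 LN/HN of 0.06, and *LYZ* (lysozyme) of -0.06. *PRTN3*, *AZU1* and *CTSG*, the serine proteases nearest to elastase, had no matched probe.

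The list of specific and gelatinase granules had 9 genes with a value of 20, including *LTF* and *MMP9*. Of these, 5 were higher and 4 lower, with a median of 0.12. This median depended on the processing, from -0.05 to 0.43, and it was below 0 in 1 of 13 settings. Apart from *LTF*, the higher genes past 1.25-fold were *HP*, *PGLYRP1* and *TCN1*. *HP* encodes haptoglobin, which binds free hemoglobin, and its 3 probes gave a log2 LN/HN from 0.88 to 1.15 (gene value 1.00, which is just short of 2-fold). *PGLYRP1* encodes a protein that recognizes bacterial peptidoglycan. The brighter of its 2 probes had a signal of 68.6 in HN and 148 in LN, the other 9.72 and 17.6, and the gene value was 1.04. *TCN1*, a vitamin B12 carrier, was not well above background in the HN pool, and its log2 LN/HN of 1.13 is a lower limit. *ORM1*, an acute-phase protein also made by liver, was the lowest (-0.50). The normexp offset makes such dim differences smaller by construction. After it, the values were 0.22 for *HP*, 0.40 for *PGLYRP1*, 0.25 for *TCN1* and -0.19 for *ORM1*.

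Genes of neutrophil surface receptors, *CXCR2* and *FCGR3A* included, had a value in 13 of 25 cases. Of these, 11 were lower and 2 higher in the LN pool, with a median of -0.12, and 3 were past 1.25-fold lower. Over the settings, 1 to 7 genes of this list were higher, and its median stayed below 0. The third of these was *CLEC7A*, the receptor of fungal glucans, with a limit of -0.74, which shrank to -0.03 after normexp. The highest was *LTB4R*, a leukotriene B4 receptor (0.08). Among 7 matched genes without any probe well above background were *CXCR1*, the sister receptor of *CXCR2*, *ITGAM*, the integrin chain CD11b, and *C5AR1*. No level is given for these receptors in either pool.

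All 6 genes of the NADPH oxidase, the enzyme complex of the respiratory burst, had a value. Of these, 4 were lower, with a median of -0.15. *NCF4* (-0.67) and *CYBB*, the catalytic subunit (-0.35), were past 1.25-fold lower, but not after normexp (-0.32 and -0.14). Of the leukotriene enzymes, 4 of the 5 with a value (7 listed) were higher, and the median was 0.25. *ALOX15*, a lipoxygenase of eosinophils and other cells, was the highest (0.65, and 0.14 after normexp), and *ALOX5*, the partner of *ALOX5AP*, was not well above background in either pool.

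Of the transcription factors of granulocyte development, 10 of 12 had a value, with 4 higher, 6 lower and a median of -0.04. *GFI1*, a repressor needed for neutrophil formation, was past 2-fold higher at a dim signal of 5.68 in HN and 11.2 in LN (log2 LN/HN 1.17), which fell to 0.08 after normexp. *CBFB* was the lowest (-0.23), although 1 of the 12 alternatives placed it above 0. *SPI1*, which encodes PU.1, was at -0.20, and *CEBPE*, a factor of the specific granule stage, was not well above background in either pool. In the list of chemokines, cytokines and adaptors, 8 of 15 had a value and 5 were lower (median -0.08). *GRO1* (a limit of -0.71) and *CXCL3* (-0.71), both ligands of CXCR2, were the lowest (-0.06 and -0.36 after normexp), and *LGALS3* (galectin-3) the highest (0.55). *CXCL8* was level (-0.0042).

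**Figure D4:**
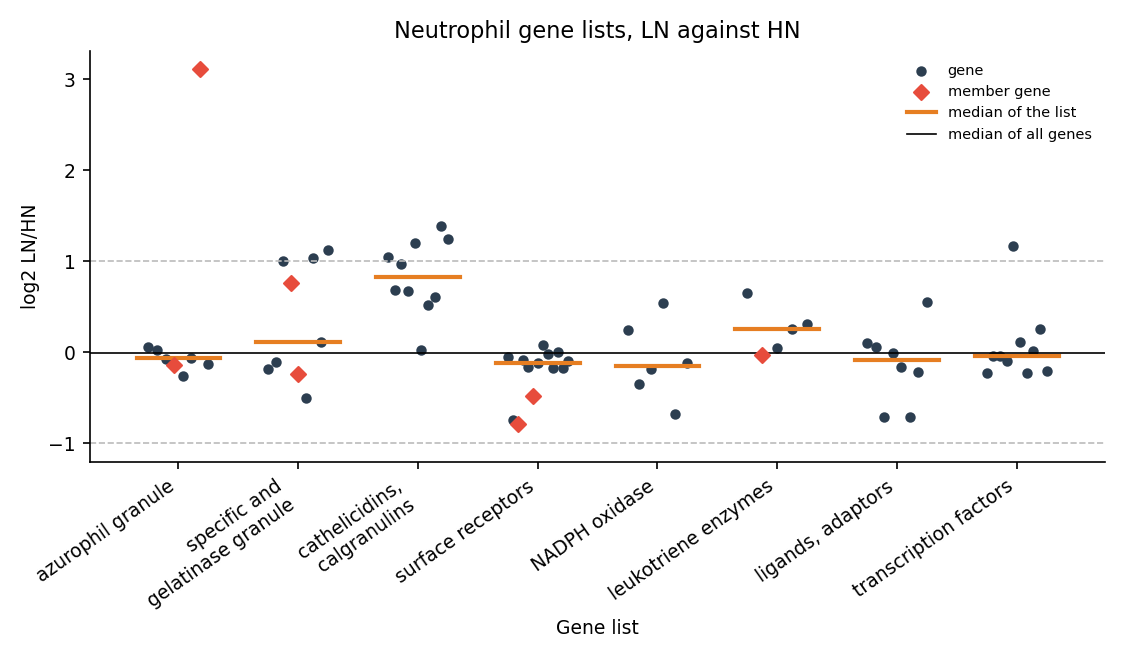
Log2 LN/HN (y axis) of each gene with a value in 8 neutrophil gene lists (x axis). Red diamonds are members, dark points other genes, orange bars list medians and the black line the median of all genes. The highest value is 3.11 (*MPO*, a member), and the other azurophil genes lie at or below 0.06 (*BPI*). The specific and gelatinase list runs from -0.50 (*ORM1*) to 1.13 (*TCN1*). The surface receptors run from -0.79 (*CXCR2*, a member) to 0.08.

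Taking the azurophil, specific granule, surface, oxidase and leukotriene lists together without the members, 34 of 47 matched genes had a value, with 14 higher and 20 lower and a median of -0.07. Of these 34 genes, 5 were past 1.25-fold higher and 4 past it lower, against 8.85% and 9.11% of all genes. Past 2-fold higher were 2, *PGLYRP1* and, as a limit from a probe dim in HN, *TCN1*, against 0.711% of all genes. The cathelicidins and S100 calgranulins, antimicrobial proteins stored in the same cells, are the most closely related genes outside these lists. All 10 were measured, and the LN pool was higher for all 10, at a median of 0.83. They ranged from *CATHL5* (0.03, below 0 in 1 of 13 settings) to *S100A8* (1.39). Several cathelicidins resemble each other in sequence, so their probes may not be independent. Of the macrophage genes, 8 of 10 were lower, with a median of -0.23, from *C1QB* (-0.45) to *LYVE1* (0.36, and 0.23 after normexp). As no test between the pools was possible, none of these lists is shown to differ from another.

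Markers of other cells that can hold the member RNAs moved as follows. For macrophages and monocytes, 10 of the 12 markers with a value were lower in the LN pool, and the normalized signals of their probes, on the linear scale, summed to 13974 (HN) and 11815 (LN). *VCAN*, which encodes a matrix proteoglycan that fibroblasts also make, went the other way (0.85, 1 probe), further than any lower gene of that list. After normexp it was 0.35, less far than *C1QB* (-0.46) and *C1QC* (-0.43). The other sums that follow are on the same normalized scale. For natural killer cells, which share *FCGR3A*, 4 of 5 were lower and the sums were 366 and 311. The lower genes reached from *GZMA* (-0.02) and *NCR1* (a limit of -0.04), both near level, to *NKG7* (-0.33). *PRF1* (perforin) went the other way (0.38), but it was 0.0055 after normexp and ranged from -0.22 to 0.79 over the settings. Of that list, *KLRD1*, *KLRB1*, *GNLY* and *KLRK1* gave no value. For T cells, 7 of 8 were lower, with sums of 17615 and 16002, of which 1 probe of *CD4* made up 85.9% and 86.2%. Those of adipocytes, a source of resistin in some species, were higher in 4 of 6 cases, with a median of 0.20. Their sums were 10767 and 10806 (10636 and 10964 before normalization), of which 1 probe of *CD36* made up 43.3% and 34.2%. *CD36* was lower (-0.24), and *LEP* gave no value. For erythroid cells, which mark the blood held in the tissue, 6 of 8 were lower, with sums of 39349 and 36912, and *HBA* was level. *TFRC*, the transferrin receptor, which other dividing cells also carry, went the other way, with a gene value of 0.80 and 3 probes between 0.77 and 0.84. *GATA1* and *KLF1*, factors of red cell precursors, were not well above background in either pool. Platelet markers were lower in 4 of 5 cases. The share of these cells in the differences of the member genes was not tested.

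The remaining lists bear on the tissue itself. Of the muscle markers, 10 of 14 were lower and 3 higher, from *MYH1* (-0.50) to *MYH8* (0.35), and their summed normalized signal was lower by 0.07 on the log2 scale in the LN pool (-0.07). Fibroblast markers were higher in 8 of 8 cases, with a median of 0.34, and endothelial markers lower in 7 of 8, with a median of -0.21. Mast cell and basophil markers were higher in 4 of 5 cases and B cell markers in 2 of 3. Of the eosinophil list, *ALOX15* alone had a value. The part of these lists in the member values was not tested.

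**Figure D5:**
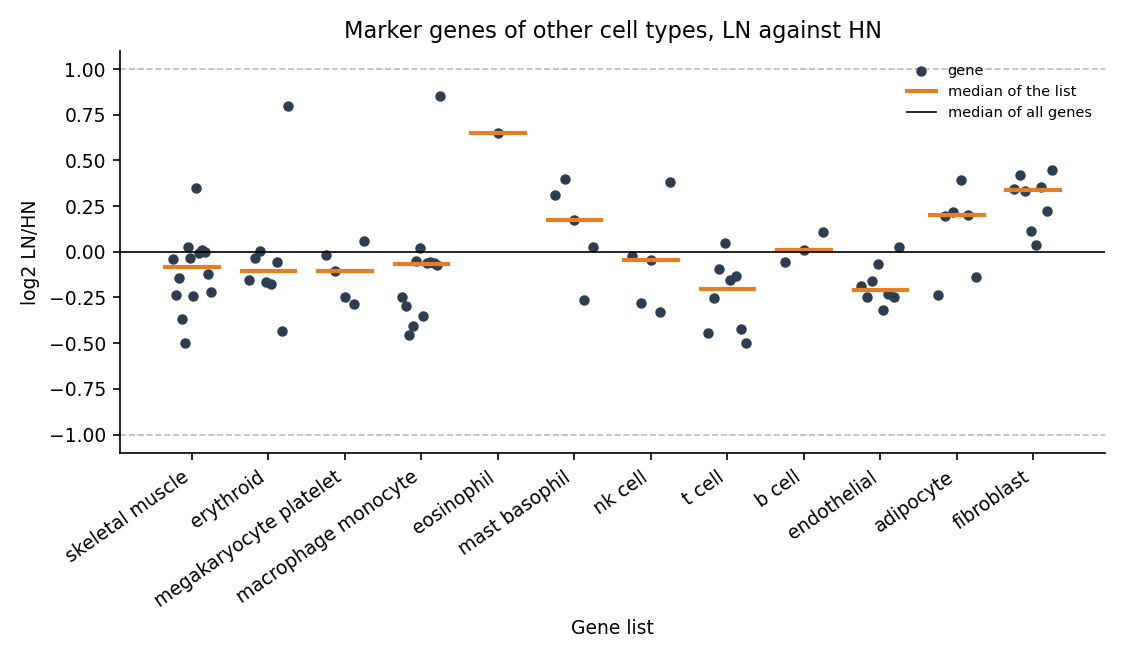
Log2 LN/HN (y axis) of each marker gene with a value in 12 cell type lists (x axis), with list medians (orange bars) and the median of all genes (black line). The lists of macrophages, T cells and endothelial cells have medians from -0.21 to -0.07, and the fibroblast list is at 0.34.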

How the data were processed

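Total RNA pooled from 4 fetuses per group was labelled with Cy3 and hybridized to 1 array per group. The authors extracted the spots with Agilent Feature Extraction 11.0.1.1, and deposited background-corrected, detrended intensity values without normalization between arrays, with error estimates and flags. The authors also deposited log2 values normalized by the quantile method for 30027 probes, whose scale was judged from the values. Here, limma 3.58.1 (R 4.3.3) quantile-normalized the log2 intensities of 43803 spots. After exclusion of 13 outlier spots, repeated spots were averaged, giving 43652 probes.

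Probes had to be well above background on 1 or both arrays. On an array where a probe was not, its value was set to the lowest signal well above background (log2 2.27 for HN and 2.82 for LN) or its own value if higher, and a fold that this reversed was left out. A gene is the mean of its probes. Probes were named by accession through the RefSeq gene table of ARS-UCD2.0 (26742 probes, 12603 symbols). Python 3.11.15, numpy 2.4.6, pandas 2.3.3 and matplotlib 3.10.9 were used. The steps were tested on simulated data.

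With 1 array per group no test was made, and the number of arrays limits the precision. Thresholds were 1.25-fold and 2-fold, and 12 alternatives were tried. The files have no mean signal, so the normexp alternative used the median signal and median background of each spot. The members and gene lists were chosen with earlier results of these data known. Every member is given with all its probes. Of each list, the genes past 2-fold, the highest and lowest and a few partners of members are named, and others named were chosen after their values were seen. Some genes that this rule names are not reported here. A planned search of promoter motifs was not run here.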

Additional observations from a re-analysis of the deposited data

How the results depend on the processing

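No paired analysis was possible because each group was measured on 1 array, and for the same reason no replicate could be left out. Over the 12 alternatives, the count of members higher in the LN pool was 2 to 4, their median was -0.15 to 0.11, and the median of the wider neutrophil lists was -0.10 to -0.02, each within 1.5 times or the software error of a member's value (0.21) of the value reported. The number of members past 2-fold higher was 1, but 0 with the authors' normalized values, with probes well above background on both arrays and after normexp, and 2 when the probe of largest change was taken for each gene, which adds *RETN*. *MPO* has no value in the first pair of these settings. The difference between granule genes of immature cells and genes of mature neutrophils (1.88) was 0.93 with the authors' values, 0.80 with probes well above background on both arrays and 0.45 after normexp. It was 2.38 with no filter on dim probes and 2.38 with probes positive and significant on at least 1 array. The values with the authors' data and with both arrays rest on 3 genes, without *MPO* and *CXCR2*. The normexp setting changed the input signal, the background correction and the offset together. Its offset makes the differences of dim probes smaller by construction, and the parts of the other changes were not tested. For single members, no value past 1.25-fold changed direction. The scaling by the 75th percentile moved the median of all genes to -0.04.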

Other observations

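In the gene order of ARS-UCD2.0, the members lie on several chromosomes, namely *MPO* on 19, *LTF* on 22, *MMP9* on 13, *CXCR2* on 2, *FCGR3A* on 3, *ALOX5AP* on 12, and *ELANE* and *RETN* on 7. *LPO*, the lactoperoxidase gene next to *MPO* and of the same enzyme family, had a log2 LN/HN of -0.31, unlike *MPO*. *CFD* (complement factor D, adipsin), next to *ELANE*, had 0.20. *CCRL2*, next to *LTF*, had -0.36. *FCGR2B*, next to *FCGR3A*, had -0.16, and *STXBP2*, next to *RETN*, had 0.19. *ZNF335* and *SLC12A5*, on either side of *MMP9*, had -0.11 and 0.12. *MEDAG*, next to *ALOX5AP*, had 0.55, against -0.03 for *ALOX5AP* itself. These are all the directly adjacent genes of the 8 members that had a value.

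Probes with dim signals varied more between the pools over the whole array. Among the 2992 probes measured on both arrays with a mean log2 signal from 3 to 4, the central 95% of log2 LN/HN values reached from -0.72 to 0.92, and 2.24% were past 2-fold. Among the 13486 probes from 8 upward, the range was -0.40 to 0.35 and the share 0.230%. Some member probes measured on both arrays had mean log2 signals from 3 to 4. Of these, the second *RETN* probe (1.34) and the second *FCGR3A* probe (-0.81) lay outside the central 95% of that range of signals. The third *LTF* probe (0.79), the first *RETN* probe (0.06) and the third *FCGR3A* probe (-0.21) lay inside it. As the members were chosen on this contrast, nothing is read from this.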
